A study of Homo sapiens with 6 samples.

Results

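The genes of human chromosome 16 were compared between rs16851030-mutant and wild-type HEK293 cells, a line derived from human embryonic kidney cells. A gene was taken as a member if its row was placed on chromosome 16 (GRCh38) and its mean over the 6 libraries was at least 1 FPKM (fragments per kilobase of gene, scaled to the library's total, a level per length). This kept 578 of the 2602 genes listed on the chromosome, and 578 of the 12550 genes that reached the same minimum on all chromosomes. Of the other 2024 genes, 1094 had no count in any library and 930 had counts below the minimum. The members were 495 protein-coding genes and 83 genes of other types. The chromosome was selected on the fold changes between these same mutant and wild-type libraries, and its genes were chosen by position and mean FPKM, so the common shift is described without a test and supports nothing.

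Both groups were HEK293 cells grown in the same medium, and the mutant cells were made by CRISPR homology-directed repair, which copies a change from a supplied template into a cut site. There were 3 mutant and 3 wild-type libraries of poly(A) RNA, labelled as biological replicates. The labels do not tell if the edited libraries derive from 1 clone, several clones or a mixture, so the variant and the origin of the edited cells cannot be told apart. Assigned counts ranged from 16013460 to 20349609 per library. Of 8 markers of HEK293 cells, 6 were at 1 FPKM or more in every library, with a summed level of 124 to 128 FPKM in the mutant and 187 to 217 FPKM in the wild-type libraries. VIM, a gene of chromosome 10, made up most of this sum, with means of 87.4 and 153 FPKM, while KRT8, EYA1 and PAX2 had higher means in the mutant libraries. PTPRC, the defining marker of blood cells, was at 0 in all libraries. Summed fibroblast, endothelial, hepatic and renal tubule markers did not exceed 0.27 FPKM in any library.

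Chromosome 16 is a gene-rich chromosome with a short arm (16p) and a long arm (16q), parted by the centromere and by a large block of repeats that holds few genes. The short arm carries the alpha globin genes near its tip and several segments that are duplicated along the arm, with near-identical gene copies. The long arm carries the metallothionein genes, a group of Iroquois transcription factor genes and many cadherin genes. HEK293 cells have an abnormal karyotype, and the number of DNA copies of the chromosome was not measured in these libraries.

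Among the members are HERPUD1, AARS1 and SLC7A5, targets of the stress response that runs through the transcription factor ATF4 or through the unfolded protein response of the endoplasmic reticulum (ER). Each departed upward from the shift of the chromosome, as described below, and the promoters of HERPUD1 and AARS1 are shown because they hold sequences that match known elements of that response. Each window runs from 250 bases before to 50 bases after the start of transcription (RefSeq, build GRCh38.p14), read 5′ to 3′ on the gene's own strand. HERPUD1 lies at chr16:56931892-56932191 on the plus strand and AARS1 at chr16:70289457-70289756 on the minus strand. Capitals mark matches to the C/EBP-ATF response element (TGATGNAA) or to the ER stress response element II (ATTGGNCCACG), searched on both strands.
HERPUD1: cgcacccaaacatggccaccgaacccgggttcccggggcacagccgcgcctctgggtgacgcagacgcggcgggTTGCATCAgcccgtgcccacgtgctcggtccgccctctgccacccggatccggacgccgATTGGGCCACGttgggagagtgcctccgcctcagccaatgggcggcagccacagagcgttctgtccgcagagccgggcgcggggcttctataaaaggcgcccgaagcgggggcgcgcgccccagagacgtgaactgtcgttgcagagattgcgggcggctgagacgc
AARS1: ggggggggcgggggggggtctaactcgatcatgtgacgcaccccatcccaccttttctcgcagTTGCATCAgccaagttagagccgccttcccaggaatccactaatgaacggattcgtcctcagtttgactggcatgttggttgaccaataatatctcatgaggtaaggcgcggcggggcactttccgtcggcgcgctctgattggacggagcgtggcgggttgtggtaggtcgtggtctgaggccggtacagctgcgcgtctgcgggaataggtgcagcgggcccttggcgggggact

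In HERPUD1 the C/EBP-ATF match begins 176 bases before the start and the ER stress match 117 bases before it. In AARS1 the C/EBP-ATF match begins 187 bases before the start. Both C/EBP-ATF matches read on the opposite strand, as TTGCATCA, and they do not overlap the ER stress match. The window of SLC7A5 held neither motif, which says only that these letters are not in it. Of 35116 promoter windows of all genes, 3.62% held TGATGNAA and 0.0541% held ATTGGNCCACG. Of the members, 418 had at least 1 window, in all 570 windows, of which 6 held the first motif and 2 the second. Beside HERPUD1 and AARS1, the first was found in windows of CARHSP1, NTHL1, TSC2 and ZNF75A. The second was found in HERPUD1 and SHCBP1. TSC2 fell by 0.15 and departed downward from the shift of the chromosome, so the first motif was not confined to genes that rose. A match describes the sequence and does not show that a factor binds there.

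The members as a body stood higher in the mutant cells. Their median log2 fold change (mutant minus wild type, from counts scaled by the trimmed mean of M-values) was 0.29, a 1.22-fold difference, against -0.01 for the genes of the other chromosomes. The middle 50% of members lay between 0.08 and 0.58, and 475 of the 578 (82.2%) were above 0. In the edgeR quasi-likelihood test with Benjamini-Hochberg adjustment over all 12550 genes, 362 members were called higher and 33 lower at an adjusted p below 0.05, and 183 were not called. Over all tested genes 29.4% were called higher and 28.7% lower. The 3 mutant values lay wholly above the 3 wild-type values in 393 members and wholly below in 28, against 34.8% and 28.1% of all tested genes. A difference of at least 2-fold upward was seen in 61 members (10.6%, against 3.72% of all tested genes), and 2 members were at least 2-fold lower.

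The shift was of like size in the 3 mutant libraries. Relative to each gene's wild-type mean, the median over members was 0.30, 0.30 and 0.28 on the log2 scale in mutant libraries 1, 2 and 3, and 0.01, -0.01 and -0.00 in wild-type libraries 1, 2 and 3. The groups did not overlap. Genes of chromosome 16 took 5.01%, 4.97% and 4.96% of the assigned counts in the mutant group and 3.96%, 3.92% and 3.93% in the wild type. In bulk RNA a larger share of counts cannot be split into more RNA per cell and more cells that carry it.

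No other chromosome with at least 20 tested genes had a median as high. Chromosome 6 came next, at 0.06. Chromosomes 10, 22 and 20 stood lowest, with medians of -0.36 (492 genes), -0.16 (333 genes) and -0.13 (329 genes). The whole distribution of the members, not its upper end alone, lay above that of the other chromosomes: the difference was 0.32 at the 10th percentile, 0.32 at the 25th, 0.31 at the 50th, 0.33 at the 75th and 0.43 at the 90th.

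The gap to other chromosomes was alike at all levels of expression, although the median itself was not. Members with a mean of 1 to 5 FPKM (246 genes) had a median of 0.39, those from 5 to 20 FPKM (219 genes) 0.27, and those of at least 20 FPKM (113 genes) 0.23. Genes of the other chromosomes in the same ranges had medians of 0.10, -0.04 and -0.10, which leaves gaps of 0.29, 0.31 and 0.33. Protein-coding members had a median of 0.28 and the other types one of 0.45. The rule's minimum also shapes the low end: the wild-type mean was under 1 FPKM in 43 members and the mutant mean in 8, so more genes entered through their mutant level. Just inside the minimum lay ZFHX3, a homeobox transcription factor gene, at 1.38, 1.23 and 1.29 FPKM in the mutant and 0.82, 0.71 and 0.58 FPKM in the wild-type libraries, and ENSG00000260342, with a mean of 1.00 FPKM. Just outside lay ENSG00000276523 at 0.99 and ENSG00000261123 at 0.975 FPKM.

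The higher level ran along the whole chromosome. The members start between base 22910 (WASIR2) and the region of GAS8 near the tip of 16q. Their widest gap, 11408899 bases between the starts of UBE2MP1 and SHCBP1, spans the centromere and was taken as the border, which put 334 members on 16p and 244 on 16q. Of 554 windows of 25 neighbouring members, 554 had a median above 0. The lowest median, 0.09, was shared by 6 overlapping windows that ran in all from TMEM219 to BCL7C (starts at 29.94 to 30.83 Mb on 16p), with 15 or 16 of 25 members above 0. The highest, at 0.60, ran from CFDP1 to MEAK7 (75.29 to 84.48 Mb on 16q), where 22 of 25 were. For comparison, 0 of 468 such windows on chromosome 10 and 9 of 309 on chromosome 22 were above 0. Overlapping windows share genes and are given as a description.

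The arms differed slightly. The median was 0.26 on 16p, with 78.1% of members above 0, 191 called higher and 28 lower. On 16q it was 0.35, with 87.7% above 0, 171 called higher and 5 lower. Within each library, the 16p median minus the 16q median was -0.07, -0.08 and -0.09 in the mutant and 0.02, -0.01 and -0.02 in the wild-type group. The difference between groups was -0.08, with no overlap, and the exact two-sided permutation test over the 6 libraries gave p = 0.1, the smallest value that 3 against 3 libraries allow. By stretches of 5 Mb, the medians of those with at least 10 members ranged from 0.18 at 30 to 35 Mb (55 members) to 0.58 at 75 to 80 Mb (14 members).

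Against this common shift, single genes were tested for a departure from the median of their own chromosome, in a second edgeR fit over all 12550 genes. Of the members, 171 lay above the chromosome median and 167 below it at an adjusted p below 0.05. Over all tested genes, 29.0% departed above and 27.6% below the median of their own chromosome, so the share that departs on chromosome 16 (58.5% in all) was near that of the genome (56.6%). Within 0.25 of the chromosome median on the log2 scale lay 50.7% of members, and 52.5% of all tested genes. On 16p, 83 members departed above and 104 below. On 16q, 88 departed above and 63 below. Where neighbouring members both departed, they did so in the same direction in 119 of 206 pairs (57.8%), against 53.8% of such pairs on other chromosomes.

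The most abundant genes that kept to the common shift give its size in FPKM. TUFM, the mitochondrial translation elongation factor Tu, was at 229, 235 and 233 FPKM in the mutant and 184, 174 and 176 FPKM in the wild-type libraries, a log2 fold change of 0.35 (SE 0.04). SRRM2, a large splicing protein of nuclear speckles, was at 104, 97.1 and 104 FPKM against 81.1, 84.5 and 71.3 FPKM. GOT2, the mitochondrial aspartate aminotransferase, was at 120, 115 and 115 FPKM against 87.4, 93.5 and 92.5 FPKM. In these genes every mutant value exceeded every wild-type value, and the distance from the chromosome median did not pass the test (adjusted p from 0.18 to 0.52). APRT, which salvages adenine, and GSPT1, the translation termination factor eRF3a, had log2 fold changes of 0.27 and 0.26, both called higher.

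The genes that rose furthest beyond the chromosome belong to varied functions. Among protein-coding members with at least 5 FPKM in the higher group, MMP2, the gelatinase that cuts collagen in the extracellular matrix (16q, 55389700 to 55506691), led with 12.9, 12.3 and 12.6 FPKM in the mutant and 2.82, 2.75 and 2.92 FPKM in the wild-type cells. Its log2 fold change was 2.12 (SE 0.07), which is 1.83 above the chromosome median (adjusted p = 1.5e-12). RMI2, a subunit of the BLM helicase complex that resolves recombination intermediates (16p, 11249619 to 11381662), was at 18.9, 20.9 and 20.2 FPKM against 6.61, 6.34 and 6.77 FPKM, 1.28 above the chromosome median. In both genes the mutant values lay far above the wild-type ones, with a narrow spread in each group. RMI2 overlaps the expressed ENSG00000263080 on the opposite strand, and the reads of these genes may not be separable. The naming rule required groups without overlap.

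HERPUD1, the ER membrane protein of the degradation pathway for misfolded proteins (16q, 56932142 to 56944864), was at 31.2, 30.1 and 33.3 FPKM against 11.6, 12.1 and 10.6 FPKM. It rose by 1.43 (SE 0.06), which is 1.14 above the chromosome median (adjusted p = 3.5e-11). Sense-intronic transcripts ENSG00000261114 and ENSG00000261270 lie inside it on the same strand and had the highest fold changes of all members, 2.89 and 2.52, and reads of the 3 genes may not be separable. EEF2K, the kinase that slows translation elongation by phosphorylating eEF2, was at 15.1, 14.8 and 14.4 FPKM against 6.62, 5.96 and 6.55 FPKM, 0.89 above the chromosome median.

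CACNA1H, a low-voltage-activated calcium channel, was at 9.76, 8.53 and 8.51 FPKM against 4.37, 2.78 and 3.14 FPKM, 1.06 above the chromosome median. NUDT7, a peroxisomal enzyme that breaks down coenzyme A, was at 5.91, 5.91 and 6.02 FPKM against 2.18, 2.06 and 2.44 FPKM, 1.09 above it. NDRG4, of the N-myc downstream regulated family, was at 5.35, 5.51 and 6.03 FPKM against 2.57, 1.86 and 2.35 FPKM, 0.99 above it. None of the 3 had overlapping groups, which the naming rule required. PAQR4 and NMRAL1, at 1.11 and 1.02 above the chromosome median, overlap PKMYT1 and HMOX2 on the opposite strand, and without known strandedness of the counting their reads cannot be told apart. HBQ1 completes the 10 genes of the naming rule and is given with the globins.

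**Figure D1:**
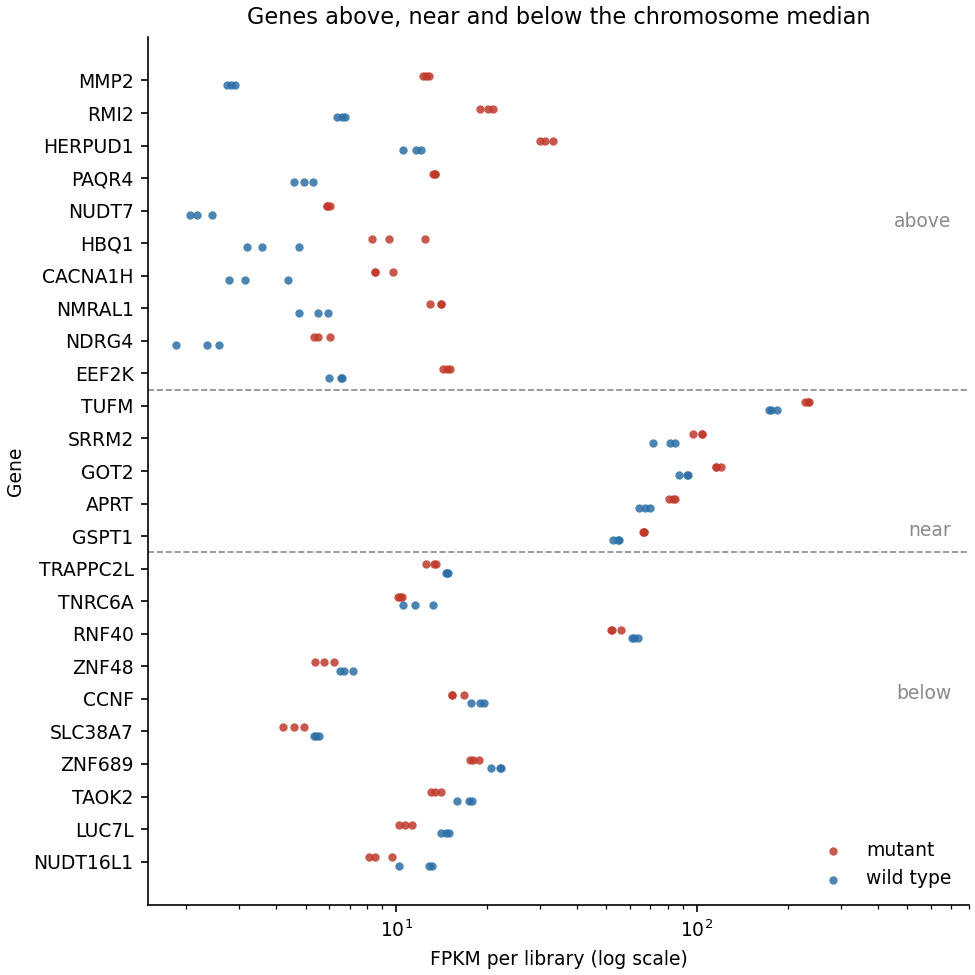
FPKM of the 25 named genes in each of the 3 mutant and 3 wild-type libraries, on a log axis, in sections for genes above, near and below the chromosome median. MMP2 shows the widest separation, about 12.6 against 2.83 FPKM. In the 10 genes below the median every mutant point lies under every wild-type point, as the naming rule required.

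The 10 genes named for the largest departures downward were lower in the mutant cells while the chromosome as a body stood higher, and all 10 fell by the test of mutant against wild type. LUC7L, a component associated with the U1 splicing particle (16p, 188969 to 229463), was at 10.7, 11.3 and 10.3 FPKM in the mutant and 14.1, 15.0 and 14.6 FPKM in the wild-type libraries. It fell by 0.47 (SE 0.05), which puts it at -0.76 from the chromosome median (adjusted p = 2.8e-09). LUC7L starts next to HBQ1 in the order of members, which departed the other way. NUDT16L1, which binds the DNA repair protein 53BP1, was at 8.15, 9.72 and 8.52 FPKM against 13.1, 10.2 and 12.9 FPKM, at -0.79 from the chromosome median.

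TAOK2, a protein kinase that acts on MAP kinase pathways, was at 14.1, 13.1 and 13.5 FPKM against 15.9, 17.8 and 17.4 FPKM, at -0.65. RNF40, a ubiquitin ligase for histone H2B, was at 55.8, 52.2 and 51.8 FPKM against 63.9, 61.6 and 60.9 FPKM, at -0.55, and it overlaps CFAP119 on the opposite strand. TAOK2, RNF40 and the zinc finger genes ZNF48 (-0.56) and ZNF689 (-0.58) start between 29973868 and 30761745 on 16p, within the stretch of windows that share the lowest median. CCNF, the F-box protein cyclin F, was at 16.8, 15.3 and 15.4 FPKM against 17.7, 19.6 and 19.0 FPKM, at -0.57. It overlaps the expressed ENSG00000260095 on the opposite strand. SLC38A7, a glutamine transporter, was at -0.57, TNRC6A, a partner of Argonaute in silencing by microRNAs, at -0.52, and TRAPPC2L at -0.50. In these 10 genes the groups did not overlap, which the naming rule required.

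Protein-coding members that departed above, did not depart or departed below had median exonic lengths of 5765, 5596 and 5561 bases and median levels of 6.07, 7.75 and 11.9 FPKM. The share departing below was larger at higher levels on chromosome 16 (19.1%, 32.4% and 43.4% of members at 1 to 5, 5 to 20 and at least 20 FPKM) and likewise on the other chromosomes (15.8%, 32.1% and 43.7%).

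By protein complex, members that encode subunits departed from the shift of the chromosome about as often as other members, but by smaller amounts. In 30 complexes listed from general knowledge, 63 subunits were members, with a median log2 fold change of 0.22. Of these, 43 (68.3%) were called higher, 3 (4.76%) lower and 17 were not called. These shares are near those of all members, 62.6% and 5.71%. The 503 tested subunits of the same complexes encoded elsewhere had a median of -0.12. Of these, 82 (16.3%) were called higher, 234 (46.5%) lower and 187 were not called. Over all tested genes the shares were 29.4% and 28.7%. Within 0.25 of the chromosome median lay 73.0% of the 63 subunits and 48.0% of the 515 members in no complex list. Among members of at least 20 FPKM these shares were 80.8% of 26 and 63.2% of 87. Of the subunits encoded elsewhere, 64.6% lay within 0.25 of the median of their own chromosome, against 52.6% of all tested genes of other chromosomes. Level was not matched in this comparison. On other chromosomes the share within 0.25 was 40.1% at 1 to 5 FPKM, 59.5% at 5 to 20 and 65.8% at 20 or more. By the test, 58.7% of the 63 subunits and 58.5% of the 515 other members departed from the chromosome median, and 69.2% and 64.4% did so at 20 FPKM or more. No subunit differed by 2-fold, on chromosome 16 or elsewhere, and the 61 members that were at least 2-fold higher were all in no complex list. These shares are descriptions, and subunits of 1 complex are not independent of each other.

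In 28 of the 30 complexes the median of the subunits on chromosome 16 was above that of the subunits elsewhere, with a median gap of 0.38 and a range from -0.18 (TRAPP) to 0.65 (CCR4-NOT). The gap restates the shift that chose the chromosome. Many of these complexes, among them TRAPP, CCR4-NOT and THO, had only 1 tested subunit on chromosome 16, so their median is the value of 1 gene. The exceptions were TRAPPC2L, a subunit of the TRAPP vesicle tethering complex, and THOC6, of the THO complex in mRNA export, which fell by 0.20 and 0.17. TRAPPC2L overlaps GALNS on the opposite strand, and the reads of these genes may not be separable.

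In the translation machinery, the cytosolic ribosome had 3 members and all rose. RPL13 was at 415, 429 and 401 FPKM in the mutant and 280, 260 and 280 FPKM in the wild-type libraries, a log2 fold change of 0.57. RPS15A and RPS2 had 0.50 and 0.42, and RPL13 and RPS15A departed above the chromosome median. RPS2 did so too, but lost the call in 8 of 18 alternative settings, with values from 0.08 to 0.43. The 75 ribosomal protein genes elsewhere had a median of 0.09. EIF3C and EIF3CL, near-identical copies of an initiation factor subunit between which reads can be split, had 0.31 and 0.33 against a median of -0.19 for 12 other eIF3 subunits. In the mitochondrial ribosome, MRPL28 rose by 0.21 and MRPS34, at 0.09, was not called, against a median of -0.27 for 73 subunits elsewhere.

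Mitochondrial respiratory subunits split. UQCRC2 of complex III was at 67.8, 74.1 and 73.8 FPKM against 50.5, 50.5 and 52.6 FPKM, a log2 fold change of 0.46, and COX4I1 of complex IV rose by 0.40. NDUFB10 of complex I was at 171, 185 and 178 FPKM against 173, 174 and 176 FPKM, with overlapping groups and a log2 fold change of -0.00. Its distance from the chromosome median, -0.30, passed the test (adjusted p = 1.4e-05). NDUFAB1, the mitochondrial acyl carrier protein, rose by 0.16. The 35 other complex I subunits had a median of -0.15.

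The 4 members that license or drive replication all rose. CDT1, which loads the replicative helicase, was at 36.2, 35.7 and 32.1 FPKM against 24.2, 24.6 and 25.8 FPKM, a log2 fold change of 0.45. ORC6 of the origin recognition complex rose by 0.46, and GINS2 and GINS3 of the active helicase by 0.36 and 0.27. The 16 other genes of this list had a median of -0.07. Of the Fanconi anemia and SLX4 nuclease genes, FANCA (0.67) and PALB2 (0.56), the partner of BRCA2, departed above the chromosome median, while ERCC4 (0.16) and EME2 (0.19) rose without departing and SLX4, at 0.14, was not called.

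Chromosome 16 encodes 5 of the 9 listed genes of cytosolic iron-sulfur protein assembly. NUBP2, CIAO2B, CIAO3 and CIAPIN1 rose, by 0.37, 0.23, 0.22 and 0.12. NUBP1, which forms a scaffold with NUBP2, was at 9.35, 11.6 and 10.8 FPKM against 11.6, 12.3 and 12.0 FPKM, a log2 fold change of -0.21 that was not called (adjusted p = 0.055). It departed from the chromosome median by -0.50. The 4 genes elsewhere had a median of -0.10.

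The regulators of mTOR complex 1 had the widest range of the 30 complexes. WDR59, of the GATOR2 complex that relays amino acid supply, was at 14.4, 14.9 and 15.4 FPKM against 9.11, 7.55 and 8.16 FPKM, a log2 fold change of 0.81, the highest of the 63 subunits. NPRL3, of the opposing GATOR1 complex, rose by 0.65. WDR24, WDR59's partner in GATOR2, was at 4.29, 4.83 and 4.96 FPKM against 4.78, 4.40 and 4.55 FPKM, with no difference called, and MLST8, a subunit of mTOR itself, had 0.09, also not called. TSC2, of the complex that restrains mTOR, was at 7.90, 7.42 and 7.59 FPKM against 8.34, 8.21 and 8.23 FPKM and fell by 0.15. All 5 departed from the chromosome median, 2 above it and 3 below, and WDR24 and MLST8 each lost the call in 1 alternative setting.

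Among the remaining complexes, COG4, COG7 and COG8 of the Golgi tethering complex rose by 0.44, 0.50 and 0.20, against a median of 0.07 for 5 subunits elsewhere. PSMD7 of the proteasome rose by 0.33 while 29 of 31 proteasome genes elsewhere fell, and PSMB10, an immunoproteasome subunit at low level, had -0.01. The proton pump subunits ATP6V0C and ATP6V0D1 were not called, at 0.02 and -0.09, and both departed below the chromosome median. CNOT1, the scaffold of the CCR4-NOT deadenylase, and the histone acetyltransferase KAT8 rose by 0.53 and 0.58. The chromatin subunits SETD1A, INO80E and SRCAP were not called, at -0.01, -0.07 and 0.11, and departed below, a call that SRCAP lost in 11 of 17 alternative settings.

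The stress response list had 3 members, and all rose beyond the chromosome. AARS1, the alanyl-tRNA synthetase (promoter shown above), was at 54.9, 55.7 and 55.9 FPKM in the mutant and 27.1, 25.5 and 25.1 FPKM in the wild-type libraries, a log2 fold change of 1.07 that lies 0.78 above the chromosome median (adjusted p = 6.0e-11). SLC7A5, the light chain of the large neutral amino acid transporter, was at 101, 95.1 and 96.4 FPKM against 64.1, 63.0 and 62.5 FPKM, 0.30 above it. HERPUD1 is given above, and NUPR1 was below the minimum. The 29 listed genes on other chromosomes had a median of 0.55, against -0.00 over all tested genes. Of the 29, 21 were called higher, 3 lower and 5 were not called, while 29.4% of all tested genes were called higher and 28.7% lower.

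Families whose genes lie together on the chromosome differed. Of the alpha globins, HBQ1 (theta globin) was at 9.49, 12.5 and 8.28 FPKM against 4.75, 3.59 and 3.20 FPKM, a log2 fold change of 1.35 (SE 0.21), and HBA1 was at 2.00, 1.07 and 1.87 FPKM against 0.67, 0.64 and 0.34 FPKM, 1.56 (SE 0.39). HBA1 shares its coding sequence with HBA2, which was below the minimum, so its reads are uncertain. HBA1 was under 1 FPKM in every wild-type library and met the minimum only through its mutant level. Of the Iroquois factors, IRX6 rose by 1.46 from a low level and IRX3 by 0.59, while IRX5, at 3.65, 2.70 and 3.36 FPKM against 3.57, 2.75 and 3.17 FPKM, showed no difference.

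CDH1, which encodes E-cadherin of epithelial junctions, was the 1 of 8 listed cadherins of the chromosome to reach the minimum. It was at 3.69, 3.13 and 3.56 FPKM in the mutant and 0.71, 0.64 and 0.63 FPKM in the wild-type libraries, a log2 fold change of 2.36 (SE 0.12). Its wild-type values were all under 1 FPKM, so CDH1 met the minimum only through its mutant level. Its reaching the minimum and the separation of its groups therefore support nothing. Of the metallothioneins, which bind zinc and copper, MT2A (0.47, adjusted p = 0.051) and MT1X (-0.16) were not called. The lowest fold changes among all members were those of ENSG00000260051 (-1.10), ENSG00000263235 (-1.02) and BRICD5 (-0.94).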

How the data were processed

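Per the file headers, the authors deposited 1 count and 1 FPKM value per gene and library. Per the submitters' processing notes they used cutadapt, HISAT2 2.0.1 and HTSeq on GRCh38. Neither the release of the annotation nor whether counting used strand is stated in the labels. The deposited FPKM were checked against the counts and matched within 0.011. Libraries were grouped by the genotype in the labels. Genes with a mean of at least 1 FPKM (12550) were tested with the quasi-likelihood test of edgeR 4.0.16 (R 4.3.3; TMM scaling; common biological coefficient of variation 0.0478), two-sided, with Benjamini-Hochberg adjustment and a threshold of 0.05. A second fit took the median of each gene's chromosome as an offset (the median of all genes for chromosomes under 20 tested genes). SE is the log2 fold change divided by the root of F. Values per library are log2 CPM with 0.5 added. The calls of the second fit were tested on simulated counts with known departures. Of the first fit only the chromosome 16 median was checked there, not its calls.

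Named genes were the 10 largest departures in each direction among protein-coding members with at least 5 FPKM in the higher group, an adjusted p below 0.05 and groups without overlap, the 5 most abundant members within 0.1 of the chromosome median, members in the lists, and the 2 genes on each side of the minimum. CDH3 and the members with extreme fold changes that no list holds were chosen after their values were seen. The members and lists were chosen with earlier results of these data known. Alternatives were other scalings, limma 3.58.1, DESeq2 1.42.0, other filters, a replicate block, and fits that left out each library in turn. Same-numbered mutant and wild-type libraries did not deviate together, so the numbers were not taken as pairs. The summed level of the blood marker list is not reported here.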

Additional observations from a re-analysis of the deposited data

How the results depend on the processing

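The median of the members was 0.33 with library totals as scaling, 0.23 with quantile normalization, 0.28 and 0.33 with limma on log2(FPKM + 1) and log2(FPKM + 0.1), 0.30 with a minimum of 5 FPKM and 0.31 (0.305) with no filter. With the minimum of 5 FPKM (332 members), 240 were called higher and 16 lower, against 2300 and 2297 of all 7304 tested genes. In that setting 106 departed above and 103 below. With no filter (1508 genes), 404 were called higher and 55 lower, against 4597 and 4369 of all 32852 tested genes. There 199 departed above and 218 below. These settings differ in the number and the level of the genes tested, and what set the counts was not tested. With each library left out, the median ranged from 0.29 (0.2895) to 0.31 (0.3051) and the difference between the arms from -0.09 to -0.07. Members called higher ranged from 327 to 354 and called lower from 24 to 36. Over all 12550 tested genes these counts ranged from 3297 to 3760 and from 3140 to 3647. Members departing above ranged from 149 to 174 and below from 142 to 169. The distance of NDUFAB1 from the chromosome median was 0.0115 and that of VPS35 0.12 with quantile normalization, against -0.14 and -0.00, and the cause was not tested. The replicate block gave a median of 0.29, with 353 called higher and 31 lower, against 3584 and 3485 of all 12550 tested genes. It gave 163 departures above and 159 below. The paired exact p of the arm difference was 0.25, the smallest value that these pairs allow. Same-numbered libraries correlated at -0.03 to -0.00 in their deviations, and the labels give no pairing beyond the number. The 25 genes named for their distance from the chromosome median kept direction and call in every setting that tested them. Of 1262 values of the 71 list members, 1153 kept direction and call, 76 lost their call, 31 gained one and 2 changed direction. At 1 to 5 FPKM, 93 of 246 members were not called, against 62 of 219 at 5 to 20 FPKM and 28 of 113 above; the part of depth in this was not tested.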

Other observations

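Below the minimum, 930 genes of chromosome 16 had counts. In a fit with no filter their median log2 fold change was 0.44, against 0.12 over the 20302 such genes of all chromosomes. Of the 930, 85 were called higher, against 1452 of the 20302 such genes of all chromosomes (7.15%), and nothing is read from this count. Another 15 were called lower, for which the share over all such genes was not taken. CDH3, which encodes P-cadherin and is a neighbour of CDH1, was at 173, 141 and 106 counts in the mutant and 15, 13 and 17 counts in the wild-type libraries (1.33, 1.31 and 1.04 against 0.13, 0.12 and 0.15 FPKM). MT1F, a metallothionein, was at 18, 16 and 19 counts against 6, 1 and 5 counts. The cadherin genes CDH8, CDH11 and CDH13 had at most 2 counts in any library. In CDH3 and MT1F the groups did not overlap, as in 135 of the 930 genes with the mutant values higher and 29 with them lower. CDH3 was chosen after its values were seen, so its separation supports nothing.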
